A study of Mus musculus with 18 samples.

Results

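The comparison set cultured mouse cortical astrocytes with the designer receptor hM3Dq against the same kind of culture with hM4Di, both taken at 90 min of stimulation. It used 6 of the series' 18 RNA-seq libraries, hM3Dq 1 to 3 and hM4Di 1 to 3, which are all those labelled with these receptors at 90 min. Fitting these 6 alone was chosen with earlier results of these data known. All groups were treated with the designer drug deschloroclozapine (DCZ) at 8 µM for 90 min, which began 7 days after a plasmid was put into the cells with a transfection reagent. The other groups at 90 min carried the receptor rM3Ds or the fluorescent protein EGFP. A second set, with hM3Dq or the fluorescent protein mCherry, was collected 3 days after the stimulation. Each of the 6 groups had 3 libraries. A receptor without the ligand was not among the groups, so the receptor's presence and its stimulation cannot be told apart. The promoter on the plasmids, the share of cells that took them up and the mouse strain and age are not given in the sources used here. The labels number the replicates without stating that each was its own culture. The p-values therefore reflect library-to-library spread, which may be technical.

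DREADDs are muscarinic acetylcholine receptors altered to respond to a synthetic drug in place of acetylcholine. hM3Dq, made from the human M3 receptor, signals through Gq, which activates phospholipase C, releases calcium from internal stores and activates protein kinase C. hM4Di, made from the human M4 receptor, signals through Gi, which inhibits adenylyl cyclase and so lowers cAMP, while its beta-gamma subunits can act on other effectors. In many cells calcium, ERK and cAMP signals converge on a small set of immediate-early genes, whose transcription starts within minutes and needs no new protein.

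The 3 hM4Di libraries held 18194489 to 25222365 estimated counts and the 3 hM3Dq libraries 16620955 to 20085084. In these 6 libraries 3 counts, taken as the floor, equal 0.119 to 0.180 CPM (counts-per-million units). Of the defining astrocyte markers, the transcription factor Sox9 (207 to 296 CPM over the 6 libraries), glutamine synthetase Glul (107 to 125), the water channel Aqp4 (84.9 to 128) and Aldh1l1 (61.7 to 123) were well detected. Gfap (1.95 to 16.4 CPM) and S100b (2.00 to 3.97) were low. Neuronal Snap25 and Syt1, microglial Ptprc and Cx3cr1 and endothelial Cldn5 were each at 0.346 CPM or less in every library. Other neuronal markers were not all low, since Map2, which other cells can express, was at 94.7 to 172 CPM, Stmn2 at 1.98 to 17.2 CPM and Tubb3 at 0.557 to 2.21 CPM. Col1a1 (778 to 1915 CPM), Pdgfrb (289 to 338) and the ciliated-cell gene Foxj1 (165 to 283) were well detected too. In bulk RNA, fewer cells of a type and less RNA per cell cannot be told apart.

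The library hM4Di 1 stood apart from the other 5. On the first principal component of log2 CPM, which held 37% of the variance, it lay at -38.4, and the others lay between 2.22 and 15.4. Gfap, at 16.4 CPM against at most 3.32 CPM in the other 5, and the neuronal growth cone gene Stmn2, at 17.2 against at most 2.09 CPM, were high there. In the other groups EGFP 1, rM3Ds 2 and rM3Ds 3 stood apart, with 4427 to 7151 CPM of cell cycle genes against at most 2302 CPM in the remaining libraries of those groups. Counts for the gene lists are therefore also given without hM4Di 1 where they differ by more than 1.5 times.

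Astrocytes with hM3Dq held more RNA of 145 genes and less RNA of 6 genes than astrocytes with hM4Di, among 13260 genes tested (edgeR's quasi-likelihood test, with p adjusted by Benjamini and Hochberg's method across the whole table; genes under 0.05 are called). The 145 were 1.09% of the genes tested and the 6 were 0.0452%, or 1.14% together. Of the called genes, 83 were higher with hM3Dq by at least 2-fold and 20 by at least 4-fold, and 0 were lower by 2-fold. At an unadjusted p below 0.05, 1042 genes were higher and 651 lower. The median log2 fold change, hM3Dq minus hM4Di, was 1.07 over the 145 higher genes, -0.64 over the 6 lower genes and -0.01 over all genes tested.

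In all 151 called genes the 3 hM3Dq libraries lay wholly above or wholly below the 3 hM4Di libraries. That also held, whatever the test, for 11.5% of all genes tested with hM3Dq higher and for 8.77% with hM4Di higher. The number called depended on which libraries were used. It was 563 without hM4Di 1, 97 without hM4Di 2, 86 without hM4Di 3, 43 without hM3Dq 1, 44 without hM3Dq 2 and 55 without hM3Dq 3. DESeq2 called 430 with all 6 libraries. List counts from these fits are to be read beside each fit's own total, not beside the 151. In total 29 genes, all of them higher with hM3Dq, were called in every one of 19 alternative fits. The plot of all genes shows the lopsided split.

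**Figure D1:**
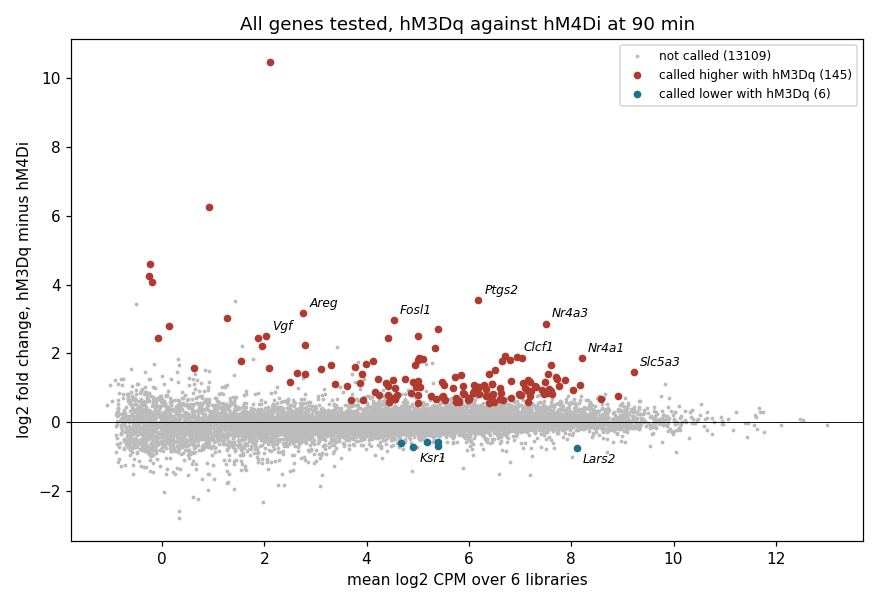
Log2 fold change (hM3Dq minus hM4Di) against mean log2 CPM over the 6 libraries at 90 min, 1 point per gene tested. The 145 genes called higher (red) reach far above 0, while the 6 called lower (blue) lie between -0.74 and -0.58.

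The largest group of called genes was that of immediate-early transcription factors and regulators. Of 37 tested members of this list, 16 were called higher, 0 lower, and 32 had all hM3Dq libraries above all hM4Di libraries. Their median log2 fold change was 0.91, against -0.01 over all genes. The number called was 27, 12 and 11 without hM4Di 1, 2 and 3, and 8, 8 and 10 without hM3Dq 1, 2 and 3. The summed level of the list was 3824 to 4302 CPM with hM3Dq and 2177 to 2424 CPM with hM4Di.

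Among AP-1 subunits, Fosl1 (Entrez 14283), a Fos-family partner of the Jun proteins, stood at 6.01, 5.19 and 4.48 CPM in hM4Di 1, 2 and 3 and at 41.6, 46.5 and 36.5 CPM in hM3Dq 1, 2 and 3. Every hM3Dq library was several times above every hM4Di library. The log2 fold change was 2.98 ± 0.15 (SE; adjusted p = 0.000102), or 7.89-fold. Fos (Entrez 14281), the founding member of the family, was at 13.2, 15 and 16.9 CPM with hM4Di and 53.3, 56.0 and 52.7 CPM with hM3Dq. The 3 hM3Dq values lay close together, far from the hM4Di values, and the log2 fold change was 1.84 ± 0.11 (adjusted p = 0.000241). Fosb, which has a low basal level in many tissues, was at 10.8, 4.07 and 5.11 CPM with hM4Di and 39.6, 34.9 and 34.4 CPM with hM3Dq, with the highest hM4Di value in hM4Di 1. Its log2 fold change was 2.43 ± 0.31 (adjusted p = 0.00944), and it was not called without hM4Di 3 or without any 1 of the hM3Dq libraries, where the adjusted p reached at most 0.0608. Junb (1.18 ± 0.11), Fosl2 (1.30 ± 0.19) and the stress-induced factor Atf3 (2.50 ± 0.13) were called as well. Fosl2 lost the call without hM4Di 2 or without any 1 of the hM3Dq libraries.

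All 3 members of the Nr4a family, nuclear receptors that act without a classical hormone ligand, were higher with hM3Dq. Nr4a3 (Entrez 18124) was at 51.7, 39.2 and 40.5 CPM with hM4Di and 359, 284 and 317 CPM with hM3Dq. Its groups were far apart, with a log2 fold change of 2.87 ± 0.15 (adjusted p = 0.000103), or 7.30-fold. Nr4a2 (Entrez 18227) was at 10.4, 11.4 and 11.8 CPM against 83.6, 64.2 and 71.6 CPM, with a log2 fold change of 2.71 ± 0.13 (adjusted p = 0.000102). Nr4a1 (Entrez 15370), the most abundant of the family with hM4Di, was at 146, 113 and 124 CPM against 487, 485 and 427 CPM. Its log2 fold change was 1.87 ± 0.13 (adjusted p = 0.000553). All 3 were called in each of the 19 alternative fits, as were Fos, Fosl1, Atf3, Junb and Csrnp1.

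The bases in front of the start sites of Fos and Nr4a3 are shown because Fos is the best known gene of the list, Nr4a3 has its second-highest fold change after Fosl1, and both hold the core of the cAMP response element (CRE), TGACGT, the letters bound by CREB-family factors. They come from RefSeq's GRCm38.p6 annotation, run 5′ to 3′ up to the base before the start, and have the core, read on either strand, in capitals. Fos lies on the plus strand at chr12:85473640-85473889 with 1 core, and Nr4a3 on the plus strand at chr4:48045055-48045304 with 3.
Fos: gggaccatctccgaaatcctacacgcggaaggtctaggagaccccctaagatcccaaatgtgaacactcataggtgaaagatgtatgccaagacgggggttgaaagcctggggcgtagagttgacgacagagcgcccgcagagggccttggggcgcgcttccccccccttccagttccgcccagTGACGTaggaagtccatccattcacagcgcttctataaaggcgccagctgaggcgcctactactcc
Nr4a3: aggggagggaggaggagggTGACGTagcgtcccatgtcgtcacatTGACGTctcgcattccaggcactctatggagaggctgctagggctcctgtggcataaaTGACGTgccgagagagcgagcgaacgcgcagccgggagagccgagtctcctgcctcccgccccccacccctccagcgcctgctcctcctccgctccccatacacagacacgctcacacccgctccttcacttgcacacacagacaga

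The early growth response genes, zinc-finger factors that are standard reporters of activity, were less uniform. Egr1 was at 26.9, 13.9 and 9.96 CPM with hM4Di and at 56.4, 68.2 and 41.0 CPM with hM3Dq. The groups did not overlap, hM4Di 1 was the highest of its group, and the difference did not pass the threshold (log2 fold change 1.69 ± 0.34, adjusted p = 0.0660). Egr4 passed it at a far lower level, with 1.94, 1.12 and 1.00 CPM against 7.62, 6.95 and 4.78 CPM (2.23 ± 0.31, adjusted p = 0.0130). Egr4 was not called without hM4Di 2, hM4Di 3, hM3Dq 1 or hM3Dq 2. Arc, whose protein acts in synaptic plasticity and is best known from neurons, was at 3.72, 1.95 and 1.58 CPM against 10.5, 13.6 and 10.9 CPM (2.25 ± 0.30, adjusted p = 0.0108). It was not called without hM4Di 2 or without any 1 of the hM3Dq libraries. Npas4, a factor known from neurons as a target of calcium signals, was at 1.98, 1.73 and 0.79 CPM against 5.64, 6.47 and 4.12 CPM and stayed just short of the threshold (adjusted p = 0.0515). The other called members, Btg2, Ier2, Klf4 and Maff, had log2 fold changes of 0.66 to 1.11. Each of these 4 lost the call without hM3Dq 1 or hM3Dq 2, Btg2, Ier2 and Klf4 also without hM3Dq 3, Btg2 and Klf4 without hM4Di 2, and Btg2, Klf4 and Maff without hM4Di 3. The members not called included Jund (-0.10 ± 0.15), Klf2 (-0.12 ± 0.20) and Srf (0.24 ± 0.21).

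**Figure D2:**
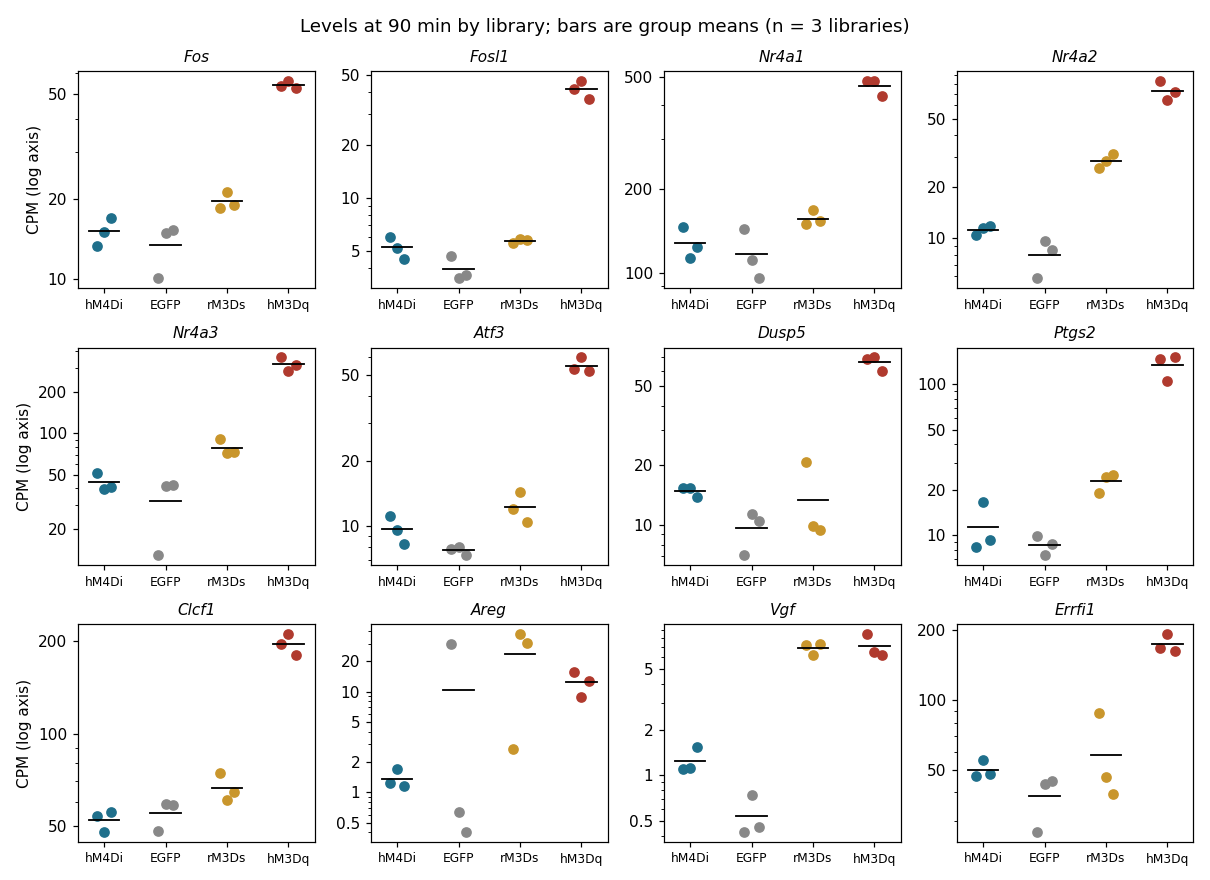
CPM (log axis) of 12 genes in each library at 90 min for hM4Di, EGFP, rM3Ds and hM3Dq; points are libraries and bars are group means of 3. In 10 of the 12 panels the hM3Dq libraries lie above all other libraries. In the panel of Vgf they overlap rM3Ds, and in that of Areg EGFP 1, rM3Ds 2 and rM3Ds 3 lie above them.

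Inhibitors of ERK signalling, which ERK itself induces as negative feedback in many cells, also held called members. Of 20 tested members, 6 were called higher, where 1.09% of all genes tested were, and 0 lower. The median log2 fold change was 0.37. Without hM4Di 1, 12 were called and the median was 0.58. The count was 5 without hM4Di 2, hM4Di 3 or hM3Dq 3, and 4 without hM3Dq 1 or hM3Dq 2. Dusp5, a nuclear phosphatase of ERK, was at 15.3, 15.4 and 13.9 CPM with hM4Di and 68.5, 69.8 and 59.5 CPM with hM3Dq. Its groups were far apart (2.15 ± 0.11, adjusted p = 0.000102). Errfi1, an inhibitor of the EGF receptor, was at 47.0, 55.3 and 47.9 CPM against 167, 192 and 163 CPM (1.79 ± 0.11, adjusted p = 0.000266). Spry2, an adaptor that limits receptor tyrosine kinase signalling, showed the smallest difference of the 6, with 66.2, 61.3 and 68.5 CPM against 123, 127 and 139 CPM (0.99 ± 0.10, adjusted p = 0.00247). Dusp1, Dusp4 and Dusp10 were higher by 1.27, 1.51 and 1.15 on the log2 scale. Dusp4 was not called without hM4Di 2, hM4Di 3 or any 1 of the hM3Dq libraries, nor Dusp10 without hM3Dq 1 or hM3Dq 2. Dusp6, a cytoplasmic ERK phosphatase (0.22 ± 0.33), and Spry1 (-0.01 ± 0.21) were not called.

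Genes known to respond to cAMP through CREB were the next group. Of 32 tested, 9 were called higher, where 1.09% of all genes tested were, and 0 lower. The median log2 fold change was 0.45. The count was 16 without hM4Di 1, 8 without hM4Di 2, 7 without hM4Di 3 and 6 without any 1 of the hM3Dq libraries. With all 12 libraries of the 90 min table in the fit it was 5. Some of the 9, namely Nr4a2, Fosb and Dusp1, also belong to the lists above, so the counts are not independent. Pde10a, a phosphodiesterase that degrades cyclic nucleotides, was at 143, 147 and 133 CPM with hM4Di and 361, 330 and 298 CPM with hM3Dq. Its groups did not overlap and the log2 fold change was 1.23 ± 0.11 (adjusted p = 0.00197). Gem, a small GTPase, was at 16.4, 18 and 19.8 CPM against 28.3, 28.2 and 30.0 CPM (0.67 ± 0.11, adjusted p = 0.0234). It was not called without hM4Di 2 or without any 1 of the hM3Dq libraries, nor with upper-quartile scaling or library totals alone.

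Secreted growth factors and neurotrophic factors held 9 called members of 33 tested, all of them higher, with a median log2 fold change of 0.28. Without hM4Di 1, 2 and 3 the count was 11, 7 and 6, without any 1 of the hM3Dq libraries it was 3, and with 12 libraries in the fit it was 4. Vgf, a secreted precursor of neuropeptides, was at 1.11, 1.12 and 1.53 CPM with hM4Di and at 8.49, 6.53 and 6.21 CPM with hM3Dq. No library of one group came near the other (2.50 ± 0.24, adjusted p = 0.00220). Bdnf, a neurotrophin, was at 8.19, 8.39 and 7.06 CPM against 27.1, 23.8 and 30.5 CPM (1.78 ± 0.14, adjusted p = 0.000789). Areg, a ligand of the EGF receptor, was at 1.23, 1.69 and 1.16 CPM against 15.6, 8.83 and 12.9 CPM (3.18 ± 0.27, adjusted p = 0.00130). Areg and Bdnf were not called when all 12 libraries shared the estimate of the spread, where the adjusted p reached at most 0.588 and 0.380. Both were high in libraries that stand apart. Areg was at 30.2 CPM in EGFP 1, 37.2 in rM3Ds 2 and 30.7 in rM3Ds 3, and at 0.629, 0.403 and 2.68 CPM in EGFP 2, EGFP 3 and rM3Ds 1. What part this state plays in the genes' levels was not tested.

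Gdnf, a ligand of the Ret receptor, was at 4.98, 5.23 and 2.95 CPM with hM4Di and 12.1, 15.1 and 11.4 CPM with hM3Dq (1.54 ± 0.23, adjusted p = 0.0178). Its groups were well apart, and it lost the call without any 1 of the hM3Dq libraries. The EGF-family ligands Ereg and Hbegf, the activin subunit Inhba and Bmp2 were also called, with log2 fold changes of 0.97 to 1.87. Each of these 4 was not called without any 1 of the hM3Dq libraries, and Ereg, Inhba and Bmp2 also not without hM4Di 2, and Hbegf and Bmp2 not without hM4Di 3. Bmp2 was at 2.48 CPM or less in each of the 6 libraries.

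Of genes that act in inflammation, a few were strongly higher and most were not called. Ptgs2 (Entrez 19225), the inducible cyclooxygenase that starts prostaglandin synthesis, was at 8.38, 16.6 and 9.28 CPM with hM4Di and 148, 105 and 151 CPM with hM3Dq. The lowest hM3Dq library was several times above the highest hM4Di library, with a log2 fold change of 3.56 ± 0.28 (adjusted p = 0.000852), or 11.8-fold. It was the only called gene of the 13 tested for prostaglandin synthesis, transport and receptors. The synthase Ptges (-0.25 ± 0.14) and the phospholipase Pla2g4a (-0.03 ± 0.09), which act after and before it in the pathway, were not called.

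Clcf1, a cytokine that signals through the ciliary neurotrophic factor receptor, was at 53.9, 47.9 and 55.6 CPM with hM4Di and 195, 210 and 180 CPM with hM3Dq (1.89 ± 0.11, adjusted p = 0.000157). It was the 1 called gene of 18 in the list of IL-6 family cytokines and receptors. Without hM4Di 1, where 563 genes were called in all, 4 of the 18 were called, and without hM4Di 2, 2 were. Il6 itself was at 0.211 CPM or less with hM4Di and at 1.36, 0.967 and 1.27 CPM with hM3Dq, with an adjusted p of 0.0534. Lif, another member, was at 5.18, 13.5 and 8.85 CPM against 22.4, 23.1 and 19.9 CPM (adjusted p = 0.106). Of 27 chemokine and NF-kB genes 1 was called, the neutrophil chemokine Cxcl2. Without hM4Di 1, 4 were called higher and 1 lower, without any 1 of the hM3Dq libraries 0 were called higher, and DESeq2 called 6 higher. Cxcl2 had 3, 0 and 3 counts in the hM4Di libraries, at or under the floor, against 1.42, 1.51 and 1.83 CPM with hM3Dq. It was not called without any 1 of the hM3Dq libraries. The chemokines Ccl2 (1.18 ± 0.33), Ccl7 (1.47 ± 0.38) and Cxcl1 (1.02 ± 0.29) were not called.

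Reactive astrocyte genes had 4 called members of 34, with a median log2 fold change of 0.12. They were Ptgs2, Clcf1, Ptx3 and Cd14. Ptx3, a secreted pattern-recognition protein, was at 40.2, 44.3 and 51.9 CPM with hM4Di and 146, 173 and 147 CPM with hM3Dq. Its groups did not overlap (1.78 ± 0.13, adjusted p = 0.000582). Cd14, a co-receptor for bacterial lipopolysaccharide, was at 16.1, 12.1 and 13.3 CPM against 28.4, 27.9 and 30.6 CPM (1.06 ± 0.13, adjusted p = 0.00743) and lost the call without any 1 of the hM3Dq libraries. Gfap, the intermediate filament that marks reactive astrocytes, was at 16.4, 1.95 and 3.32 CPM against 2.66, 2.24 and 2.70 CPM. The hM3Dq values lay within the range of the hM4Di values, of which hM4Di 1 was by far the highest (adjusted p = 0.419). Without hM4Di 1 the list's median was -0.04, and 7 members were called higher and 2 lower.

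Genes of pericellular proteolysis included 5 called members of 29, with a median log2 fold change of 0.31. Plaur, the receptor of urokinase, was at 25, 19.0 and 14.3 CPM with hM4Di and 49.3, 43.7 and 42.6 CPM with hM3Dq (1.21 ± 0.19, adjusted p = 0.0199). Adamts1, a protease that cleaves proteoglycans, was at 35.0, 26.6 and 21.3 CPM against 65.0, 66.3 and 54.5 CPM (1.16 ± 0.18, adjusted p = 0.0195). The serpin Serpinb8 (1.05 ± 0.14) and the collagenase Mmp13, at 1.98 CPM or less in each of the 6 libraries, were also called. Plaur, Adamts1, Serpinb8 and Mmp13 were not called without any 1 of the hM3Dq libraries or without hM4Di 2, and Adamts1 and Mmp13 also not without hM4Di 3. The count for the list was 7 without hM4Di 1, 1 without hM4Di 2, 3 without hM4Di 3 and 1 without any 1 of the hM3Dq libraries.

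Nfatc2, a calcineurin-dependent transcription factor, was at 1.70, 0.822 and 0.843 CPM with hM4Di and 6.07, 6.95 and 5.80 CPM with hM3Dq. All hM3Dq libraries were high (2.46 ± 0.31, adjusted p = 0.00824), though the call was lost without any 1 of them. Of 18 genes of the calcineurin-NFAT list, Nfatc2 and Ptgs2 were the 2 called. The count was 5 without hM4Di 1, 1 without any 1 of the hM3Dq libraries and 4 with DESeq2. Rcan1, a feedback inhibitor of calcineurin, was not called (-0.02 ± 0.14). Rgs17, a GTPase activator that acts on Gi-family subunits, was at 22.5, 12.8 and 8.91 CPM against 46.8, 47.8 and 45.8 CPM (1.65 ± 0.28, adjusted p = 0.0318). It was the only called RGS gene of 11, against 2 higher and 1 lower without hM4Di 1, and lost the call without hM4Di 2, hM4Di 3 or any 1 of the hM3Dq libraries.

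In the signalling machinery itself few or no genes were called, where edgeR called 1.14% of all genes tested. Of 49 G protein subunits, adenylyl cyclases, phospholipases, kinases and arrestins, edgeR called 0, DESeq2 0 and limma-voom 0, while 2 were higher and 3 lower at an unadjusted p below 0.05. Their median log2 fold change was 0.03, with single genes from -1.06 to 0.77, and without hM4Di 1 edgeR called 1. Gnaq, the alpha subunit of Gq, was not called (0.06 ± 0.21), nor was Gnai2, an alpha subunit of Gi (-0.10 ± 0.11). Among 31 genes of calcium stores, calcium entry and calmodulin kinases edgeR and limma-voom called 0 and DESeq2 2, with 7 higher and 3 lower at an unadjusted p below 0.05 and a median of 0.05. Without hM4Di 1 edgeR called 2 of the 31. The mouse gene Chrm3, which encodes the natural M3 receptor, was at 5.73, 6.36 and 8.27 CPM with hM4Di and 12.4, 9.98 and 10.2 CPM with hM3Dq (0.68 ± 0.18, adjusted p = 0.158). These counts do not test which plasmid the cells carried.

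A few called genes fell outside the large lists. Rorb, a nuclear receptor listed with the circadian clock, was at 12.1, 16 and 16.5 CPM with hM4Di and 61.9, 41.8 and 54.1 CPM with hM3Dq. It was the 1 called clock gene of 18 (1.83 ± 0.18, adjusted p = 0.00234), where 2 were called without hM4Di 1. Hk2, a hexokinase, and Pdk4, a kinase that restrains pyruvate dehydrogenase, were the 2 called of 28 genes of glycolysis, glycogen and lactate (0.74 ± 0.13 and 1.06 ± 0.16). The laminin chain Lamc1 was the 1 called of 28 matrix genes (0.68 ± 0.12), where 2 were called without hM4Di 1. Hk2, Pdk4 and Lamc1 were not called without hM4Di 3 or without any 1 of the hM3Dq libraries, and Hk2 and Lamc1 also not without hM4Di 2. Nptx1, a secreted pentraxin that binds glutamate receptors, had 36 counts in total over the hM4Di libraries and 226 over the hM3Dq libraries (3.03 ± 0.32, adjusted p = 0.00372). It was not called with 12 libraries in the fit. Like Areg, Nptx1 was high in libraries that stand apart, at 3.78 CPM in EGFP 1, 2.77 in rM3Ds 2 and 4.17 in rM3Ds 3. In EGFP 2, EGFP 3 and rM3Ds 1 it was at 0.629, 0.346 and 0.627 CPM.

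The following genes were chosen after their values were seen, for their size or their call in all 19 alternative fits. Sgk1, a kinase of ion transport, was at 63.3, 70.3 and 36.7 CPM with hM4Di and 203, 221 and 201 CPM with hM3Dq (1.87 ± 0.22, adjusted p = 0.00604). Homer1, a scaffold that links glutamate receptors to calcium stores, was at 16.4, 13.3 and 11.4 CPM against 35.3, 31.1 and 31.0 CPM (1.24 ± 0.15, adjusted p = 0.00627). In both the groups did not overlap. The fitted fold change was highest for Rpl14-ps1, a ribosomal pseudogene, whose counts are uncertain because near-identical copies share reads. It had 0 counts in all hM4Di libraries and 12.8, 11.7 and 2.44 CPM with hM3Dq, at least 65.1-fold higher against a floor of 3 counts per library. Its call was lost without any 1 of the hM4Di libraries, without hM3Dq 1 and without hM3Dq 2, and it was also at 0 in EGFP 3.

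The 6 genes that were lower with hM3Dq differed modestly. Lars2, the mitochondrial leucyl-tRNA synthetase, was at 319, 365 and 355 CPM with hM4Di and 181, 233 and 209 CPM with hM3Dq. Its groups did not overlap (-0.74 ± 0.13, adjusted p = 0.0326). Gadd45a, a growth-arrest gene, was at 44.1, 41.5 and 45.4 CPM against 28.3, 29.9 and 29.2 CPM (-0.59 ± 0.09, adjusted p = 0.0199). Ksr1, a scaffold of the ERK cascade, was at 34.0, 37.0 and 40.9 CPM against 25.7, 23 and 19.9 CPM (-0.71 ± 0.13, adjusted p = 0.0391). Klf15, a factor induced by glucocorticoids, Plscr1, an interferon-induced scramblase, and Ppfibp2, a liprin, had log2 fold changes of -0.58, -0.59 and -0.69. Of 30 FOXO and growth-arrest targets, Gadd45a was the 1 called lower and Pdk4 the 1 called higher, with a median of -0.16, and without hM4Di 1 there were 2 of each. All 6 lower genes remained called without hM4Di 1, and each lost the call without hM4Di 2, hM4Di 3, hM3Dq 1, hM3Dq 2 or hM3Dq 3.

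Lists without a called gene also had medians away from that of all genes, and hM4Di 1 moved with some of them. Interferon-stimulated genes had a median log2 fold change of -0.56, with 36 of 37 below 0. EdgeR and limma-voom called 0 of the 37 and DESeq2 called 7 lower. At an unadjusted p below 0.05, 23 were lower, as were 651 of all 13260 genes tested. Of the 37, 26 had groups that did not overlap, with hM4Di higher, which held for 8.77% of all genes tested. The summed level of the list was 17738 CPM in hM4Di 1, 11149 in hM4Di 2 and 11603 in hM4Di 3, against 9465, 9556 and 9945 CPM in the hM3Dq libraries. All hM4Di libraries were above all hM3Dq libraries, and hM4Di 1 was far above both of its replicates. The EGFP libraries held 8549 to 9160 CPM, below the hM3Dq libraries, so hM4Di lay farther from EGFP than hM3Dq did. Without hM4Di 1 the median was -0.25 and 1 gene was called lower. Isg15, a ubiquitin-like interferon-induced protein, was at 350, 233 and 177 CPM with hM4Di and 148, 153 and 156 CPM with hM3Dq (adjusted p = 0.206).

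Cholesterol synthesis and uptake leaned the other way, with a median of 0.44 and 23 of 25 genes above 0. EdgeR called 0, limma-voom 1 and DESeq2 3, all higher, and 12 were higher at an unadjusted p below 0.05. The list's sum was 2539, 3917 and 3928 CPM with hM4Di and 4771, 4625 and 4681 CPM with hM3Dq, so that hM4Di 1 was again the outermost library. Without hM4Di 1 the median was 0.26 and 7 genes were called.

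For cell cycle genes the median was -0.77 and 33 of 34 were below 0, and edgeR, DESeq2 and limma-voom each called 0. At an unadjusted p below 0.05, 15 were lower. Of the 34, 5 had groups that did not overlap, with hM4Di higher, which held for 8.77% of all genes tested. The list's sum was 3669, 2562 and 2063 CPM with hM4Di and 2689, 2283 and 2384 CPM with hM3Dq, so the groups overlapped. Mki67, a marker of dividing cells, was at 18.7, 20.7 and 3.21 CPM against 9.66, 3.99 and 4.17 CPM, where hM4Di 3 was the lowest of all 6. Without hM4Di 2 the median was -0.46 and without hM4Di 3 it was -1.06.

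**Figure D3:**
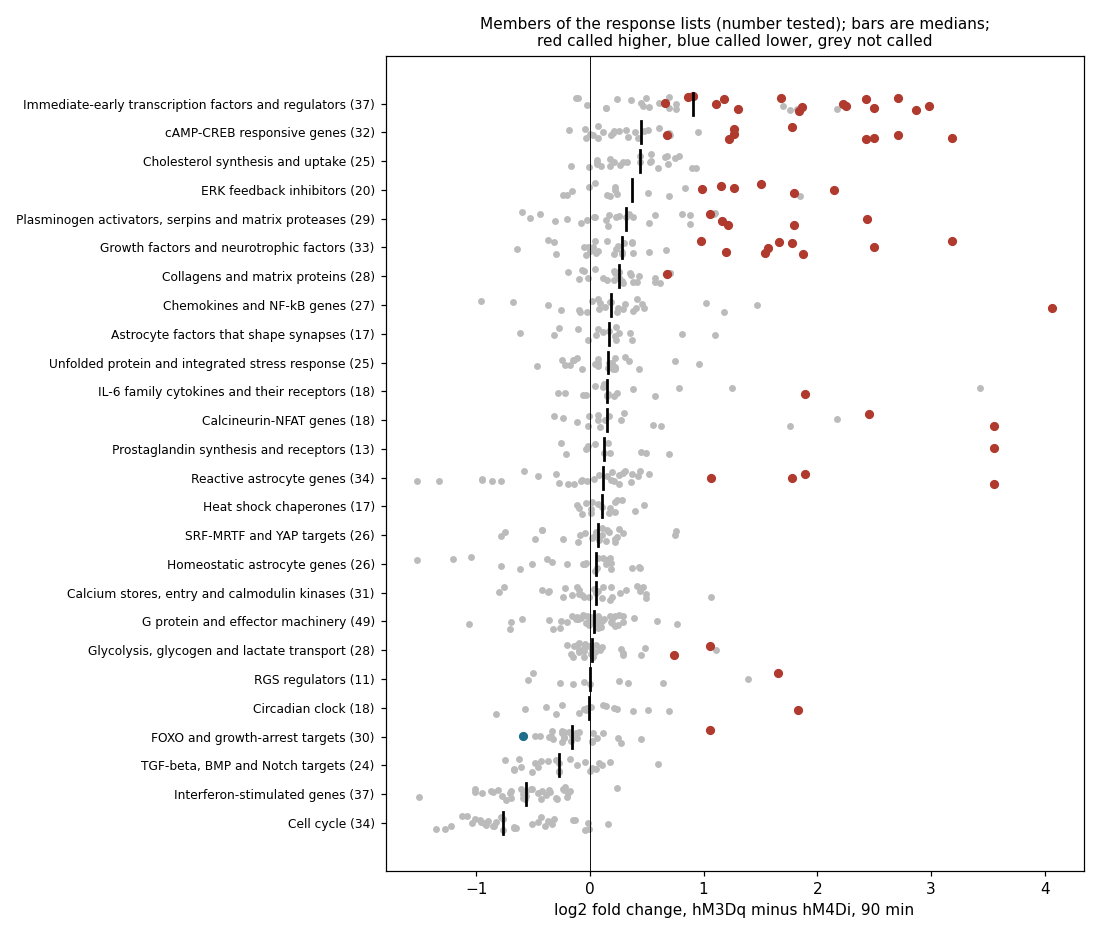
Log2 fold change (hM3Dq minus hM4Di) of each tested member of 26 response lists, with the number tested in brackets and the median as a bar. Called members (red) gather in the immediate-early, cAMP-CREB, ERK feedback, growth factor and protease lists, while the interferon and cell cycle lists lie left of 0 with no called member.

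**Figure D4:**
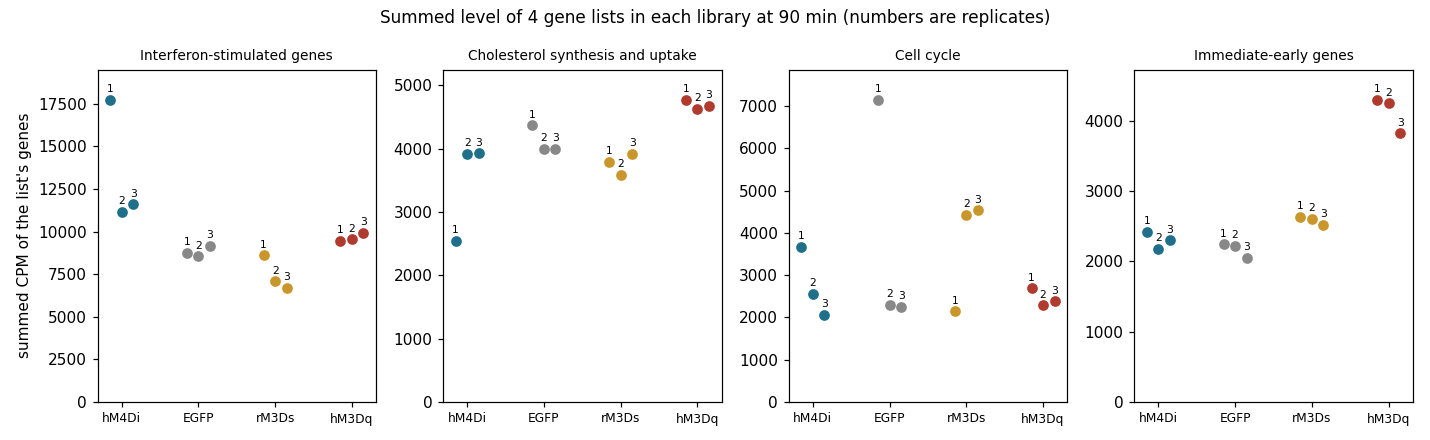
Summed CPM of 4 lists in each library at 90 min, with replicate numbers. The immediate-early sum is highest in the 3 hM3Dq libraries, and hM4Di 1 stands apart from its replicates for interferon (17738 CPM) and cholesterol genes (2539 CPM).

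Among genes of astrocyte identity few or none were called, where edgeR called 1.14% of all genes tested. At that share, counts of 0 in lists this short do not show that the genes were unchanged. Of 26 homeostatic astrocyte genes edgeR and limma-voom called 0 and DESeq2 1, with 2 higher and 1 lower at an unadjusted p below 0.05 and a median of 0.05. For astrocyte factors that shape synapses the edgeR count was 0 of 17, limma-voom called 1 and DESeq2 2, 5 were higher at an unadjusted p below 0.05, and the median was 0.16. Without hM4Di 1, where 563 genes were called in all, edgeR called 4 of the 17 higher and the median was 0.29. Unfolded protein, heat shock, SRF and YAP target and TGF-beta, BMP and Notch target lists held 0 genes called by edgeR, with medians of 0.16, 0.11, 0.07 and -0.28. DESeq2 called 3, 1, 2 and 1 of their genes higher and 0, 0, 0 and 2 lower, and limma-voom 0. At an unadjusted p below 0.05, 5, 2, 2 and 1 were higher and 0, 0, 2 and 8 lower. Without hM4Di 1 edgeR called 1, 3, 1 and 1 higher and 1, 0, 0 and 0 lower, and the median of the last list was -0.06.

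Among markers of other cells, 5 neuronal, 5 oligodendrocyte lineage, 3 microglial and 4 ependymal genes were tested and edgeR, DESeq2 and limma-voom called 0 of each, with 0 at an unadjusted p below 0.05. Without hM4Di 1 edgeR called 1 neuronal gene higher. With 1.14% called among all genes tested, 0 calls in lists this short say little about these cells. Flt1 was the 1 called of 6 endothelial genes (1.61 ± 0.21) and Twist1 the 1 called of 12 fibroblast and mural genes (0.57 ± 0.10). Neither was called without any 1 of the hM3Dq libraries, Flt1 also not without hM4Di 3, and Twist1 not without hM4Di 2, with upper-quartile scaling or with library totals alone. The summed fibroblast and mural markers were 2094 to 3665 CPM with hM4Di and 2740 to 3450 CPM with hM3Dq, which overlap. The endothelial sums were 50.2 to 73.2 CPM and 64.0 to 66.9 CPM. The summed microglial markers were 4.54 to 6.84 CPM with hM4Di and 3.72 to 4.53 CPM with hM3Dq. Whether other cells take part in any difference was not tested.

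The same genes can be read beside the EGFP control, in 1 fit of all 12 libraries at 90 min. The comparisons of hM3Dq with EGFP and of hM4Di with EGFP share the EGFP libraries with each other and a receptor group with the comparison above, so they are not independent of it. With hM3Dq 107 of 13584 genes were called against EGFP, or 0.788%. With hM4Di edgeR called 0, or 0%, and 745 had an unadjusted p below 0.05. This fit includes EGFP 1, rM3Ds 2 and rM3Ds 3, the libraries that stand apart, and they enter its estimate of the spread. EGFP 1 also enters the EGFP mean. The count of 0 therefore does not show that hM4Di matched EGFP. Fos differed from EGFP by 2.01 ± 0.16 with hM3Dq and by 0.17 ± 0.15 with hM4Di on the log2 scale. Ptgs2 differed by 3.96 ± 0.27 and 0.40 ± 0.26, and Clcf1 by 1.82 ± 0.11 and -0.07 ± 0.11. For these 3 genes hM4Di lay close to the control. Vgf differed by 3.69 ± 0.27 with hM3Dq and 1.2 ± 0.27 with hM4Di and Fosb by 3.57 ± 0.33 and 1.12 ± 0.32. Both lay above EGFP with hM4Di too, by less, and without passing the threshold. Egr1, not called between the receptors, was called for hM3Dq against EGFP (2.40 ± 0.42, adjusted p = 0.0269 by edgeR). With hM4Di it differed from EGFP by 0.70 ± 0.41 and was not called. Of the lower genes, Lars2 differed by -0.83 ± 0.17 with hM3Dq and -0.09 ± 0.17 with hM4Di. Gadd45a, at -0.32 ± 0.09 and 0.27 ± 0.09, and Plscr1, at -0.28 ± 0.09 and 0.31 ± 0.09, lay on either side of EGFP.

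In the libraries with the Gs-coupled receptor rM3Ds, which raises cAMP, some of these genes were at other levels. Vgf was at 7.18, 6.20 and 7.28 CPM in rM3Ds 1, 2 and 3, which overlapped the hM3Dq libraries at 8.49, 6.53 and 6.21 CPM. Adamts1, at 53.6, 69.2 and 64.3 CPM, overlapped them too, at 65.0, 66.3 and 54.5 CPM with hM3Dq. Nr4a2 was at 25.6, 28.4 and 30.9 CPM, between the hM4Di and the hM3Dq libraries. Fosl1, at 5.53, 5.82 and 5.79 CPM, and Clcf1, at 74.5, 60.9 and 64.7 CPM, were close to or little above the hM4Di libraries. These levels are given without a test, and rM3Ds 2 and rM3Ds 3 are among the libraries that stand apart.

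Promoters were searched for short motifs because many called genes are known targets of CREB, AP-1 or EGR factors. RefSeq (GRCm38.p6) gave 158 windows of 300 bases, from 250 before to 50 after a start, for 107 of the 145 called-higher genes, and 13492 windows for 10537 of the genes tested. On either strand the full CRE, TGACGTCA, was in 7.59% of the windows of called-higher genes, 3.00% of those of tested genes and 1.79% of all 32851 windows. Its core TGACGT, which the full motif contains and which was added after the first search, was in 18.4%, 11.1% and 7.51%. The AP-1 motif TGANTCA was in 10.1%, 5.14% and 7.81%, and the EGR motif GCGNGGGCG in 13.9%, 10.5% and 5.55%. The TATA box TATAAA was in 15.8%, 7.17% and 13.6%. The CArG box, which SRF binds, was in 0.633%, 1.32% and 1.63%, and the NF-kB site in 10.8%, 10.5% and 8.46%. Genes with several starts count several times, and a match is a run of letters, not a bound site.

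The 12 stretches with the full CRE are the following, upstream of the start, 5′ to 3′ on the gene's strand, with up to 16 bases on each side and the motif in capitals. They show which called genes hold it, from the EGF-family ligand Areg and the phosphatase Dusp1 to the deiodinase Dio2 and the kinase Plk2.
Errfi1, chr4:150855003-150855042, plus strand: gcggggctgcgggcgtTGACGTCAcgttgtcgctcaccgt
Areg, chr5:91139522-91139561, plus strand: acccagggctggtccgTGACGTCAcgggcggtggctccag
Ell2, chr13:75707270-75707309, plus strand: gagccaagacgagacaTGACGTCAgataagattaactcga
Plk2, chr13:110394966-110395005, plus strand: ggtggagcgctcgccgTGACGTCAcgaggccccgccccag
Dusp1, chr17:26508592-26508631, minus strand: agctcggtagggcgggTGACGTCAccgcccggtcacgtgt
Arl4d, chr11:101665499-101665538, plus strand: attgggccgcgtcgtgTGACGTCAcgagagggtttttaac
Flt1, chr5:147726069-147726108, minus strand: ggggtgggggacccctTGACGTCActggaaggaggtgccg
Maff, chr15:79347475-79347514, plus strand: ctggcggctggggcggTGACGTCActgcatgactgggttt
Dio2, chr12:90739110-90739149, minus strand: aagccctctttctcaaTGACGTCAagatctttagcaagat
Btg2, chr1:134079298-134079337, minus strand: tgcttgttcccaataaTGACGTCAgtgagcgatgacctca
Slc25a25, chr2:32424193-32424232, minus strand: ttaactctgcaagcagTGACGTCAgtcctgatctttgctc
Btaf1, chr19:36926054-36926078, plus strand: ggggaaaacgtgccggTGACGTCAc

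In Areg the motif began 61 bases before the start and in Dusp1 143 bases before it. The motif began 51 bases before 1 start of Errfi1. Of the called immediate-early genes with a window, Btg2 and Maff held the full CRE, and Atf3, Egr4, Fos and Nr4a3 held its core alone.

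The genes called at 90 min were looked up 3 days after the stimulation, in libraries that the 90 min comparison did not use. There cells with hM3Dq were compared with cells with mCherry, not with hM4Di. Of the 145 higher genes 135 were tested, edgeR called 0 of them and 0 of all 12807 genes, and DESeq2 called 7 of them and 156 in all. Of the 135, 58 were above 0, and their median log2 fold change was -0.04, against -0.01 for all genes. At an unadjusted p below 0.05, 17 of the 135 were higher and 19 lower, 26.7% together, where 12% of all genes tested had such a p.

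Nr4a3 was at 2.25, 2.58 and 2.28 CPM in the hM3Dq libraries at 3 days and at 0.803, 0.480 and 0.784 CPM with mCherry. Its groups did not overlap, at levels far below those at 90 min (1.76 ± 0.25, adjusted p = 0.199). Nr4a1 was at 13.6, 14.8 and 14.4 CPM against 6.91, 8.63 and 6.16 CPM (0.98 ± 0.15, adjusted p = 0.199). Fos was at 10.2, 11.3 and 10.5 CPM against 14.8, 16.3 and 13.1 CPM, so that hM3Dq was the lower group (-0.47 ± 0.12, adjusted p = 0.262). Clcf1 was also in the lower direction (-0.61 ± 0.11), and Errfi1 in the higher (0.53 ± 0.10), with adjusted p of 0.205 and 0.214. Lars2, called lower at 90 min, was at 907, 904 and 712 CPM against 530, 442 and 183 CPM at 3 days. Its groups did not overlap, and hM3Dq was the higher group (1.13 ± 0.34, adjusted p = 0.294). Of the other genes lower at 90 min, Plscr1 (0.29 ± 0.10), Gadd45a (0.24 ± 0.17) and Ksr1 (0.10 ± 0.12) were in the higher direction. Klf15 (-0.14 ± 0.17) and Ppfibp2 (-0.04 ± 0.09) were in the lower direction, and edgeR called none of these genes at 3 days.

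The library mCherry 3 decided how many genes were called at 3 days. Without it edgeR called 1257 genes of 12929, or 9.72%. Of the genes higher at 90 min, 137 were tested in that fit, of which 14 were called higher and 12 lower. Errfi1 (0.62 ± 0.06), Nr4a1 (0.88 ± 0.12), Nr4a3 (1.86 ± 0.32), Ptx3 (0.44 ± 0.06) and Inhba (0.39 ± 0.05) were among the higher. Clcf1 (-0.65 ± 0.09), Fos (-0.54 ± 0.11), Ier2 (-0.37 ± 0.09) and Btg2 (-0.30 ± 0.09) were among the lower. The median over these genes was 0.03.

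**Figure D5:**
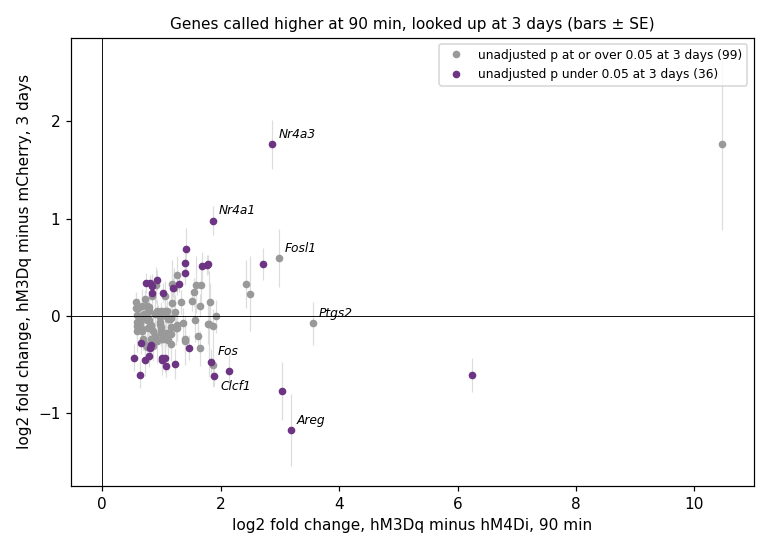
Log2 fold change at 3 days (hM3Dq minus mCherry, bars ± SE) against that at 90 min (hM3Dq minus hM4Di) for the 135 genes called higher at 90 min and tested at 3 days. All points lie right of 0 by their choice; at 3 days they scatter around 0, with Nr4a3 and Nr4a1 above and Fos, Clcf1 and Areg below. The 2 points farthest right, Dnah17 and Rpl14-ps1, had at most 3 counts over the hM4Di libraries.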

How the data were processed

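RNA was poly-A selected, and the authors deposited estimated counts per gene for 12 libraries at 90 min and 6 at 3 days, not normalised. Per the submitters' processing notes, the tools were Salmon 1.8.0 and fastp 0.23.4 and the build was mm39, with no role given. Non-whole values made up 55.9% of the 90 min table and 30.5% of the 3-day table. All were rounded to whole numbers. How transcripts were summed to genes and whether strand was used are not given in the sources used here, so near-identical, overlapping and antisense genes are uncertain. Symbols were matched by Entrez identifier for 99.55% of 22078 identifiers, and the rest held 0.0325% of counts. No gene coordinates are given, since the annotation at hand is of GRCm38; promoter coordinates are RefSeq's own. Some transcripts and genes are not reported here.

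The comparison was fitted to its 6 libraries (4 residual degrees of freedom) with edgeR 4.0.16 in R 4.3.3 (quasi-likelihood, robust, TMM scaling, edgeR's default filter), leaving 13260 of 22078 genes. The Benjamini-Hochberg adjustment ran over all of them. SE is the log2 fold change divided by the square root of F. CPM values use TMM factors over the 12 libraries at 90 min, or the 6 at 3 days. Whether replicate numbers pair libraries was checked from deviations around group means, whose same-number correlations were 0.291, -0.159 and 0.282, so they were not taken to pair them. No 2 libraries agreed within counting noise. The test was tested on simulated data. Floors cover counting error only.

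Named genes were Fos, Egr1, Nr4a1, Chrm3 and Gfap, the 12 highest and 12 lowest fold changes among called genes whose groups did not overlap and whose mean log2 CPM was 1 or more, the 3 called members of smallest p in each response list with at least 3 called, and every called member of a list with 1 or 2. Other genes were chosen after their values were seen. The members, the 33 gene lists and the tests were chosen with earlier results of these data known. Alternatives were 12, 9 or 8 libraries fitted, a replicate block, other scalings and filters, DESeq2 1.42.0, limma-voom (limma 3.58.1), non-robust dispersion and leaving out each library. The fit of 8 libraries was chosen after seeing the data.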

Additional observations from a re-analysis of the deposited data

How the results depend on the processing

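Of the 151 genes called, 29 were called in all 19 alternatives. Rescaling with size factors from DESeq2's method, upper-quartile factors or library totals left 150, 138 and 135 called and shifted the median of all genes by -0.00729, -0.0493 and -0.0523 on the log2 scale. The medians of the lists of RGS regulators, G protein machinery, calcium, glycolysis and homeostatic astrocyte genes changed sign between scalings, so no direction is read from them.

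With 12 libraries fitted, 109 genes were called and 52 changed by at least 2-fold (83 in the 6-library fit). With 9 libraries 300 were called (277 higher, 23 lower), and with 8 libraries 1033 (852 higher, 181 lower, 134 by 2-fold). DESeq2 called 430 (364 higher, 66 lower), so that 84.7% of its calls were higher, against 145 of 151 in the 6-library fit with edgeR. Without a filter 13 were lower. Of the 6-library fit's calls, 151 were also called with 9 libraries and with DESeq2, and 81 with 12 libraries. The replicate block called 270 genes (249 higher, 21 lower), and with 12 libraries 61 (59 higher, 2 lower, 42 by 2-fold). At 3 days it called 0. The replicate numbers, however, were not shown to pair the libraries. Both hM3Dq 1 and hM3Dq 3 correlated best with the hM4Di library of the same number (0.291 and 0.282), but hM3Dq 2 did so with hM4Di 1 (0.13).

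Leaving out 1 library gave 43 to 563 called, 43 to 510 higher, 0 to 53 lower and 37 to 121 by 2-fold. It gave 0 to 1257 at 3 days, where DESeq2 called 156 and edgeR without a filter 1. With 1 library left out an arm holds 2, and the fit has 3 residual degrees of freedom. The causes of these shifts were not tested beyond what each alternative leaves out. No result reversed in direction among named genes. Depth limits genes near the floor of 3 counts, such as Cxcl2, Il6, Tac1 and Krt13.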

Other observations

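Of the 151 called genes, 9 had at most 51 counts in total over the 3 hM4Di libraries. They include Tac1, the precursor of substance P, with 4 counts in total over the hM4Di libraries and 83 over the hM3Dq libraries. Tac1 was at 0.171 CPM or less in each rM3Ds and EGFP library. Krt13, a keratin, had 5 and 81 counts. Dnah17, an axonemal dynein chain, had 3 counts over the hM4Di libraries and 200 over the hM3Dq libraries, and it was at 1.99, 4 and 2.53 CPM in EGFP 1, 2 and 3, so that its low group was hM4Di.

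Further called genes lay outside the lists described above. Hmox1, heme oxygenase, was at 135, 207 and 202 CPM with hM4Di and 319, 360 and 356 CPM with hM3Dq (0.93 ± 0.17, adjusted p = 0.0447 by edgeR). It was called without hM4Di 1 and in none of the other fits with 1 library left out. Srxn1, sulfiredoxin, was at 55.3, 55.0 and 56.0 CPM against 130, 104 and 124 CPM (1.1 ± 0.11, adjusted p = 0.00242). Slc5a3, a carrier of myo-inositol, was at 387, 317 and 260 CPM against 911, 925 and 816 CPM (1.46 ± 0.16, adjusted p = 0.00467). In these 3 genes, chosen after their values were seen, the groups did not overlap.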
